A study of Homo sapiens with 14 samples.

Results

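YAP/TAZ target genes were taken as a set of 10: CCN1, CCN2, ANKRD1, AXL, AMOTL2, MYOF, CRIM1, FJX1, LATS2 and AJUBA. Every array probe annotated to one of these genes alone was used, under the present symbol or an older one (CYR61 for CCN1, CTGF for CCN2). Of the 10 genes, 8 had such a probe, with 11 probes in all among the 47323 of the table. All 11 were past the filter on detection, and each of the 8 genes was 1 of 11679 tested. No probe annotated to a single gene was available for ANKRD1 and AXL, which were not analysed here.

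The samples were 14 arrays of Mel202, an established human uveal melanoma cell line that carries GNAQ Q209L and GNAQ R210K and is wild type for BRAF, per the labels. Cells received ICG-001 at 3 µM, a small molecule known for binding the coactivator CBP and blocking its contact with beta-catenin, or its solvent DMSO. The 4 groups were DMSO for 24 h, ICG-001 for 24 h, DMSO for 48 h and ICG-001 for 48 h, with 3 arrays in each DMSO group and 4 in each ICG-001 group. Arrays whose titles shared a number and differed by the letter a or b were averaged, which left n = 2 DMSO replicates and n = 3 ICG-001 replicates per time. Both mutations were shared by all groups, and the single line limits the model to 1 genetic background. Nothing in the labels says whether the replicates came from separate cultures, and the p-values therefore measure a spread between samples that may be only technical.

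YAP and TAZ are transcriptional coactivators that bind DNA through the TEAD proteins. The LATS kinases of the Hippo pathway phosphorylate them and hold them in the cytoplasm, while actin tension releases them. In uveal melanoma, active GNAQ is known to drive YAP into the nucleus through TRIO and the actin cytoskeleton, and some YAP/TAZ targets, such as LATS2 and AMOTL2, encode proteins that restrain YAP in turn.

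To set the measurements beside the DNA that the TEAD proteins read, the promoter windows of the members were taken from RefSeq (GRCh38.p14), from 250 bases before to 50 bases after each transcription start. The table held 11 windows for 8 of the 10 members, with 2 windows each for AXL, AMOTL2 and AJUBA and none for CCN1 and CRIM1. Each window was searched on both strands for the core of the TEAD site, GGAATG. Below are 2 windows of genes that rose under ICG-001, CCN2 (chr6:131951323-131951622, minus strand) and MYOF (chr10:93482285-93482584, minus strand), and 2 of genes that did not pass the test at either time, LATS2 (chr13:21061537-21061836, minus strand) and AMOTL2 (chr3:134374398-134374697, minus strand). Capitals mark the TEAD core, which reads CATTCC where it lies on the other strand.
CCN2: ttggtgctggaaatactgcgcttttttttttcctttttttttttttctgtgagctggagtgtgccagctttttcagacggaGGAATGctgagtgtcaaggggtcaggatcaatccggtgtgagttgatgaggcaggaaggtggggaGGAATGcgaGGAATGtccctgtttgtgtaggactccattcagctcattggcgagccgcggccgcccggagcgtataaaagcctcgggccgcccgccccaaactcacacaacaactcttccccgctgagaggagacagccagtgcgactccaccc
MYOF: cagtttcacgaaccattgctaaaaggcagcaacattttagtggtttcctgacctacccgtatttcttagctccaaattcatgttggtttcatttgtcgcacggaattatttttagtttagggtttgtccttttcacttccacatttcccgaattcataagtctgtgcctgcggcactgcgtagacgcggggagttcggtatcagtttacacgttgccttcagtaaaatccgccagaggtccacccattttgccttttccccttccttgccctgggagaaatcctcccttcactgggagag
LATS2: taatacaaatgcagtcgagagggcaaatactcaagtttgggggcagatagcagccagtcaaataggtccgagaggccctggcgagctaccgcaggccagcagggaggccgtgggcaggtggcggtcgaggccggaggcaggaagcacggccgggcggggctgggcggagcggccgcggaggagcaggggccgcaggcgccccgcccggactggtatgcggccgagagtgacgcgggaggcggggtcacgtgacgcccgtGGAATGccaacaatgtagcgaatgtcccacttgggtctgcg
AMOTL2: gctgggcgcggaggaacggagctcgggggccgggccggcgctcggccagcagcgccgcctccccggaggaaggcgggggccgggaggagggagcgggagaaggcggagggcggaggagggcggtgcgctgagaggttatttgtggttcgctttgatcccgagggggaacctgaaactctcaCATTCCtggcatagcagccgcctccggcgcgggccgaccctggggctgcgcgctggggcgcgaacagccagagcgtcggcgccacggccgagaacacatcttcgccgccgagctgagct
CCN2 held 3 matches, which began 169, 104 and 95 bases before the start. The window of LATS2 held 1 match, 9 bases after the start, and 1 of the windows of AMOTL2 held 1 match, 69 bases before it. AJUBA had 1 match in 1 of its windows, and the other window of AMOTL2 and of AJUBA held none. MYOF and FJX1 held none in the single window of each. In all, 6 of the 11 member windows held the TEAD core, against 14% of the 35116 windows of the same length in the table. The 6 include the window of ANKRD1 and 1 of AXL, genes whose expression was not analysed here. The members were listed as YAP/TAZ targets beforehand, so this share is no test of them. The AP-1 site, TGANTCA, reads the same on both strands; it was in the window of ANKRD1 and in no other member window, against 7.71% of all windows, and overlapped no TEAD core. The CArG box of SRF was in no member window and in 1.29% of all. A match is only a description of these letters, and a window without one says nothing of the factor.

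Across the series, the median signal was 126.9 to 139.1 on the DMSO arrays and 113.1 to 129.3 on the ICG-001 arrays, and 37.2% to 42.5% of the probes on an array were detected (p below 0.05). Precision is limited by the small number of arrays. Melanocyte-lineage markers fitted the label of the cells: 8 of 10 listed were tested and each of the 8 was detected on all 14 arrays, with PMEL at 14.12 to 14.47 in normalized log2 signal. Other marker levels moved with treatment. The summed linear level of the melanocyte markers was 53150 to 57200 in DMSO and 48000 to 49150 in ICG-001 at 24 h, and 56180 to 58230 and 51460 to 51840 at 48 h, and 3 of the 8 (SOX10, GPR143 and SLC45A2) fell at each time. Of 4 tested markers of retinal pigment epithelium, 3 rose at each time, and their sum was 1806 to 2048 over the DMSO replicates and 2889 to 3517 over those of ICG-001. The fibroblast marker LUM fell, with log2 changes of -1.83 at 24 h and -2.22 at 48 h (limma, adjusted p = 8.44e-05 and 1.56e-05), while COL1A1 was detected on 5 arrays, and the sum of both was 601.9 to 867 in DMSO and 154.7 to 215.3 in ICG-001. CDH1, the epithelial marker tested, fell at both times. CD68 fell at both times among 4 immune markers, of which CD14 was detected on 4 arrays and whose sum was 1390 to 1459 in DMSO and 948.8 to 1136 in ICG-001, and the endothelial marker EMCN did not pass the test. Listed markers without an annotated probe past the filter were not analysed here. The part of these shifts in the members' changes was not tested. In bulk samples of this single line, fewer cells expressing a marker and less RNA per cell cannot be told apart.

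The comparison of ICG-001 with DMSO asked how the compound changes gene expression in these cells. At 24 h, 5 of the 8 measured YAP/TAZ targets rose and none fell: MYOF, CRIM1, CCN2, CCN1 and FJX1. Of all genes tested, 24.3% changed at 24 h, 13.7% upward and 10.5% downward. At 48 h, 4 of 8 rose and none fell (MYOF, CRIM1, CCN2 and FJX1), against 25.8% of all genes changed, 14.0% upward and 11.7% downward. With both times averaged into a mean effect, 6 of 8 rose, AJUBA joining the first 5, and none fell, against 41.8% of all genes changed, 22.6% upward and 19.2% downward. These calls are adjusted p-values below 0.05 from limma over all genes, and at an unadjusted p below 0.05 also 0 members were lower in each of the 3 comparisons. The median log2 change of the 8 members was 0.68 at 24 h and 0.53 at 48 h, beside 0.02 and 0.01 for all genes tested. All 8 changes were above 0 after quantile normalization at both times. Without normalization between arrays, 7 of 8 were above 0 at 24 h and 3 of 8 at 48 h, with the median of all genes at -0.19 and -0.45 (limma, log2 scale), so each direction here is relative to the other genes on the same arrays.

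**Figure D1:**
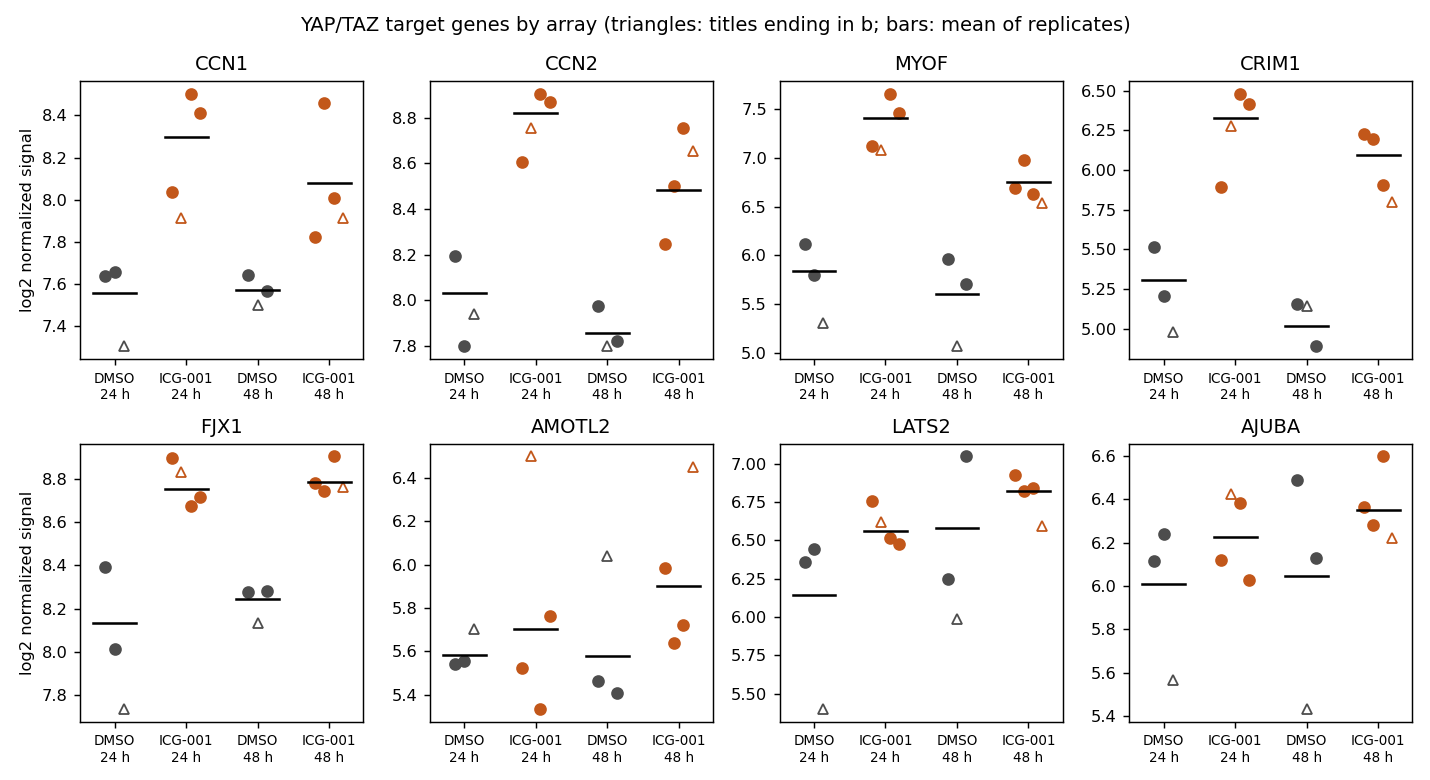
Normalized log2 signal of the 8 measured YAP/TAZ targets on each of the 14 arrays (vertical axis, own range per gene) in the 4 groups (horizontal axis). Filled circles are single arrays (grey for DMSO, orange for ICG-001), open triangles are the arrays whose titles end in b, and bars are means of the replicates; for CCN1, CCN2, MYOF, CRIM1 and FJX1 every ICG-001 array lies above all DMSO arrays of the same time, while AMOTL2 and AJUBA overlap at both times and LATS2 at 48 h.

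MYOF, which encodes myoferlin, a membrane protein of the ferlin family that takes part in membrane repair and vesicle traffic, had the largest change of the members at 24 h and, with CRIM1, 1 of the 2 largest at 48 h. Its normalized log2 signal at 24 h was 6.12 and 5.55 in the DMSO replicates and 7.10, 7.66 and 7.46 in the ICG-001 replicates. The lowest ICG-001 replicate lay well above the highest DMSO replicate. The change was 1.57 ± 0.21 (log2, SE), or 2.97-fold (limma, adjusted p = 0.000667), and it ranked 27 of 11679 genes from the most increased. At 48 h the replicates read 5.51 and 5.70 in DMSO and 6.69, 6.97 and 6.58 in ICG-001, again apart, with a change of 1.14 ± 0.21, or 2.21-fold (adjusted p = 0.00278). The raw signals at 24 h were 152.4 to 168.9 on the DMSO arrays and 237.3 to 279.1 on the ICG-001 arrays. At 48 h the raw ranges met, at 143.4 to 192.2 and 174.1 to 216.7. MYOF was dim in DMSO, where 2 of 3 arrays detected it at 48 h. The offset therefore weighs on its fold change and rank. With an offset of 50 in place of 16, the changes were 1.15 at 24 h and 0.77 at 48 h.

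CRIM1 encodes a transmembrane protein that binds bone morphogenetic proteins. Its replicates at 24 h were 5.52 and 5.09 in DMSO and 6.09, 6.48 and 6.42 in ICG-001, a change of 1.02 ± 0.18 or 2.03-fold (limma, adjusted p = 0.0031). At 48 h they were 5.15 and 4.89 in DMSO and 6.23, 6.19 and 5.85 in ICG-001, a change of 1.07 ± 0.18 or 2.10-fold (adjusted p = 0.00205). The groups did not overlap at either time. CRIM1 was dim in DMSO: its detection p-value was below 0.05 on 2 of 3 DMSO arrays at 24 h and 1 of 3 at 48 h, and on all 4 ICG-001 arrays at each time. The signal offset of 16 therefore weighs on its fold change, which was 0.64 and 0.62 on the log2 scale with an offset of 50.

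CCN1 and CCN2 encode secreted matricellular proteins that bind integrins and are among the most used readouts of YAP and TAZ. CCN2 read 8.19 and 7.87 in the DMSO replicates at 24 h and 8.68, 8.91 and 8.87 in those of ICG-001. At 48 h it read 7.89 and 7.82 in DMSO and 8.24, 8.50 and 8.70 in ICG-001. Every ICG-001 replicate was above every DMSO replicate of its time, and CCN2 rose by 0.79 ± 0.16 at 24 h and 0.63 ± 0.16 at 48 h, or 1.73-fold and 1.55-fold (limma, adjusted p = 0.0057 and 0.0147). It passed at neither time without normalization between arrays (limma, adjusted p = 0.199 and 0.893). Without the averaged pair of DMSO arrays at 24 h its adjusted p there was 0.0558, and leaving out either DMSO replicate at 48 h gave 0.0662 and 0.0845.

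CCN1 read 7.64 and 7.48 in DMSO and 7.98, 8.50 and 8.41 in ICG-001 at 24 h. At 48 h the values were 7.57 and 7.57 in DMSO and 7.82, 8.46 and 7.96 in ICG-001. The groups were apart at both times, but the ICG-001 replicates were more spread than those of DMSO. CCN1 rose at 24 h by 0.74 ± 0.20, or 1.67-fold (limma, adjusted p = 0.022). At 48 h its change of 0.51 ± 0.20 did not pass the test (adjusted p = 0.0844). Its change at 24 h was 0.53 without normalization between arrays and did not pass (limma, adjusted p = 0.25). The call at 24 h ended with array weights (adjusted p = 0.0535) and when any of 4 replicates was left out: the first DMSO replicate (0.0517), the averaged pair of DMSO arrays (0.125), or either unpaired ICG-001 replicate (0.0679 and 0.0616).

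FJX1 is the human relative of Drosophila four-jointed, a Golgi kinase that acts on the cadherins Fat and Dachsous upstream of Hippo signalling in the fly. At 24 h it read 8.39 and 7.87 in DMSO and 8.87, 8.68 and 8.72 in ICG-001, a change of 0.62 ± 0.15 or 1.54-fold (limma, adjusted p = 0.0139). At 48 h it read 8.21 and 8.28 in DMSO and 8.78, 8.74 and 8.83 in ICG-001, a change of 0.54 ± 0.15 or 1.46-fold (adjusted p = 0.0232). The ICG-001 replicates of both times lay within a narrow band, above all DMSO replicates. FJX1 passed at neither time without normalization between arrays (limma, adjusted p = 0.398 and 0.971). Without the averaged pair of DMSO arrays at 24 h, the change there was 0.36 (adjusted p = 0.122). At 48 h the call ended without either DMSO replicate (adjusted p = 0.13 and 0.0792), without the first ICG-001 replicate (0.0569) and without the averaged ICG-001 pair (0.057).

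The other 3 measured members encode proteins that act back on the pathway. LATS2 is a Hippo kinase that phosphorylates YAP. Its replicates at 24 h were 6.36 and 5.92 in DMSO and 6.69, 6.52 and 6.48 in ICG-001, so the groups did not overlap, yet the change of 0.42 ± 0.23 did not pass the test (limma, adjusted p = 0.214; 95% confidence interval -0.09 to 0.93). At 48 h one DMSO replicate, at 7.05, lay above all ICG-001 replicates (6.92, 6.82 and 6.72), and the other read 6.12. The change there was 0.24 ± 0.23 (adjusted p = 0.48), and it was -0.23 without the low DMSO replicate and 0.70 (adjusted p = 0.0387) without the high one.

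AMOTL2 is an angiomotin-family protein that binds YAP and holds it at junctions and actin. It read 5.54 and 5.63 in DMSO and 6.01, 5.33 and 5.76 in ICG-001 at 24 h, and 5.75 and 5.41 against 5.98, 5.64 and 6.09 at 48 h. The groups overlapped at both times, and neither change passed the test (0.12 ± 0.20 and 0.32 ± 0.20; limma, adjusted p = 0.715 and 0.27). The 95% confidence intervals were -0.33 to 0.56 and -0.12 to 0.77. AMOTL2 was detected on all 14 arrays but dim in all 4 groups, with means of 5.58 to 5.90, which limits what the test could find.

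AJUBA encodes a LIM-domain protein that binds LATS kinases and restrains them. At 24 h it read 6.11 and 5.90 in DMSO and 6.27, 6.38 and 6.03 in ICG-001, which overlapped. At 48 h it read 5.96 and 6.13 in DMSO and 6.37, 6.28 and 6.41 in ICG-001, with no overlap. The changes were 0.22 ± 0.14 and 0.31 ± 0.14 (limma, adjusted p = 0.275 and 0.124). Its mean effect over both times, 0.26 ± 0.10, passed narrowly (limma, adjusted p = 0.0496) and kept that call under 6 of 22 alternatives. It was 0.05 (adjusted p = 0.746) without the arrays with titles ending in b, and -0.085 without normalization between arrays.

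Over the members at each time, 6 of 8 had every ICG-001 replicate above every DMSO replicate, as had 27.4% of all genes at 24 h and 28.1% at 48 h. In the raw signals, all ICG-001 arrays were above all DMSO arrays for 4 members at 24 h (CCN1, CCN2, MYOF and CRIM1) and for 0 at 48 h.

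Genes with several probes allowed a check within the gene. In a fit over all 22158 probes past the filter, 7 of the 11 member probes rose at 24 h, 4 at 48 h and 8 in the mean effect, against 8.80%, 9.44% and 16.5% of all probes called higher. The 3 MYOF probes rose at 24 h by 1.57, 1.20 and 0.82 (limma, adjusted p = 0.00131, 0.00289 and 0.0135), the last of these, ILMN_2370976, with 1 of its 3 DMSO arrays detected at that time. ILMN_2370976 met the detection filter only through ICG-001 arrays, where it was high. Its p-value and its place among the 7 and the 8 are therefore no independent check. At 48 h the changes were 1.14, 0.54 and 0.52, and the first passed the test (adjusted p = 0.00471, 0.077 and 0.0752). The same probe was not well above background on any DMSO array at 48 h. Its level there was at least 1.19-fold higher in ICG-001, and 3 of the 4 ICG-001 arrays measured it. The second CCN2 probe, ILMN_2115125, changed by 0.65 ± 0.26 at 24 h and 0.59 ± 0.26 at 48 h, close in size to the first probe, but did not pass the test at either time (adjusted p = 0.112 and 0.136). It rose in the mean effect, by 0.62 ± 0.18 (adjusted p = 0.023).

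**Figure D2:**
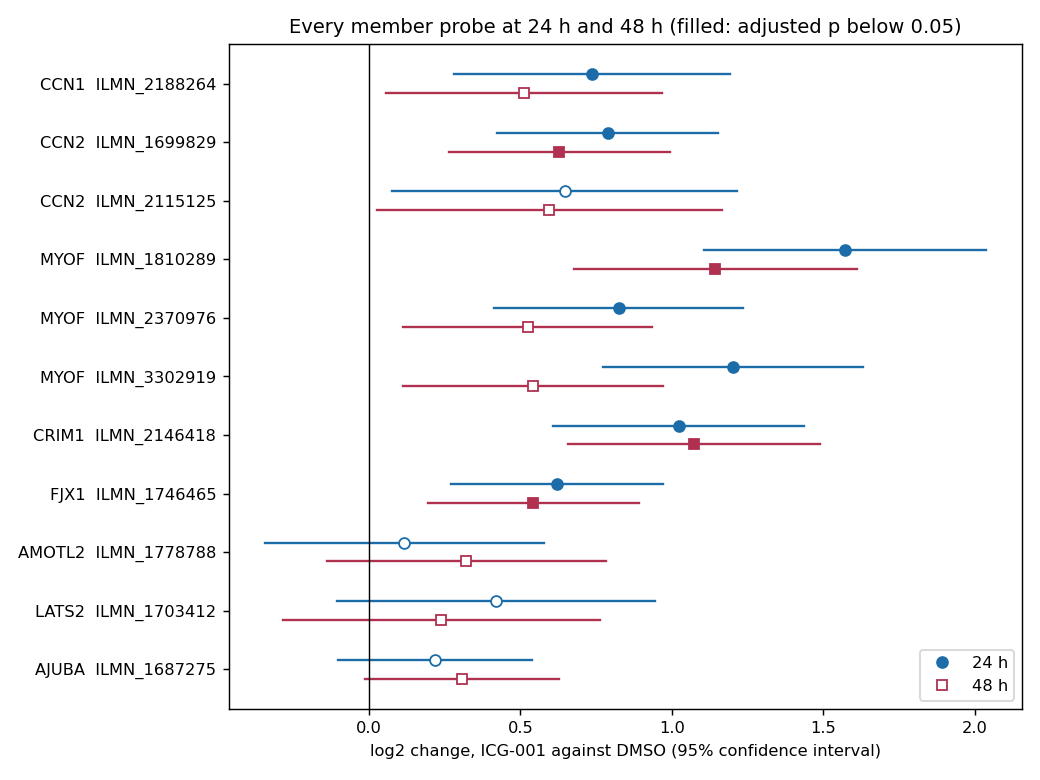
Log2 change of ICG-001 against DMSO (horizontal axis) with its 95% confidence interval for all 11 member probes (vertical axis), as circles at 24 h and squares at 48 h. Filled symbols passed the test over all probes; the first MYOF probe and CRIM1 lie farthest to the right at 48 h, those and the MYOF probe ILMN_3302919 at 24 h, and the intervals of AMOTL2, LATS2 and AJUBA include 0.

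The size of the members' changes depended on the scale of the signals. On the scale of the authors' deposited table, close to log2, the same model gave MYOF 0.58 at 24 h and 0.34 at 48 h, CRIM1 0.26 and 0.25, CCN2 0.52 and 0.39, and FJX1 0.41 and 0.37. All of these passed the test (limma, adjusted p from 0.00101 to 0.0134), although MYOF and CRIM1 were far smaller than after background correction. Without normalization between arrays, MYOF (1.36, adjusted p = 0.00016) and CRIM1 (0.84, adjusted p = 0.0413) rose at 24 h and no member passed at 48 h. There, CRIM1 was at 0.68 (adjusted p = 0.0505) and MYOF at 0.65 (0.062), and CCN1, FJX1, AMOTL2, LATS2 and AJUBA were below 0. In this setting the model gave every member the same SE, 0.28 at each time. Its p-values therefore follow the size of the change and not the spread of each gene. Relative to the median of all genes on those unnormalized values, all 8 members were higher, by 0.09 to 1.55 at 24 h and by 0.15 to 1.13 at 48 h. Of all genes called at 24 h and 48 h, 56.5% and 54.5% were higher after quantile normalization, and 16.6% and 2.99% without normalization.

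**Figure D3:**
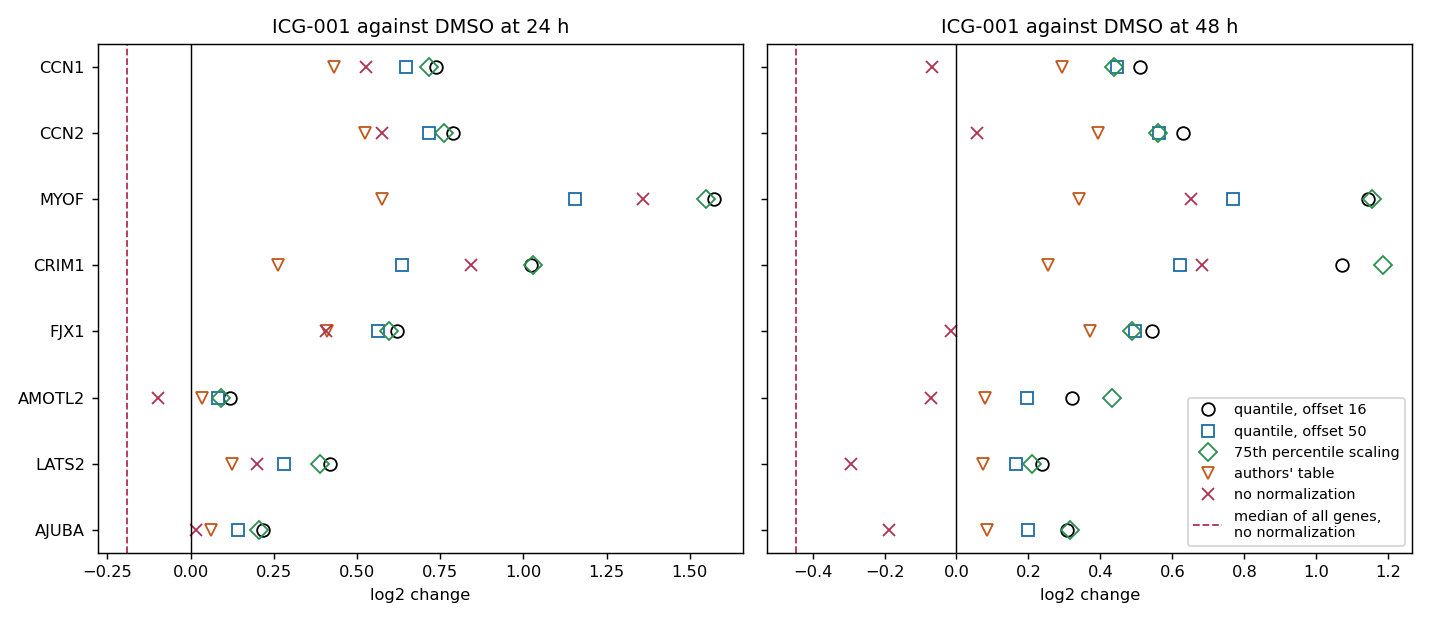
Log2 change of ICG-001 against DMSO (horizontal axes) at 24 h and 48 h for the 8 measured members (vertical axis) under 5 treatments of the signals. Open symbols are normalized values and crosses are background-corrected values without normalization between arrays, whose median over all genes is the dashed line at -0.19 and -0.45; every cross lies to the right of it.

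Each group held 1 array with a title ending in b, and in each of the 4 pairs with the same title number some members differed in 1 direction. AMOTL2 was higher on the b array in all 4 pairs, by 0.15 to 0.98 on the log2 scale, a range that reaches past its ICG-001 change at either time. CCN1, FJX1, LATS2 and the 3 MYOF probes were lower on the b array in all 4 pairs, by up to 1.04 for LATS2. Over all genes, 43.1% differed in 1 direction in all 4 pairs. On the b arrays alone, with 1 array per group and no test, all 8 members were higher in ICG-001 at both times, with LATS2 at 1.22 and AJUBA at 0.86 at 24 h. Without the b arrays the 24 h changes of MYOF (1.46), CRIM1 (0.90), CCN2 (0.80), CCN1 (0.67) and FJX1 (0.56) stayed past the threshold (limma, adjusted p from 0.000503 to 0.0273), and those of LATS2 (0.18), AMOTL2 (-0.0085) and AJUBA (-0.0006) did not reach it. With every array as a replicate and the letter b as a term of the model, 2 changes at once, AMOTL2 (0.30, limma, adjusted p = 0.0279) and LATS2 (0.41, adjusted p = 0.0233) passed the test in the mean effect. With every array as a replicate and no such term, neither did (adjusted p = 0.285 and 0.0502). Both settings count arrays sharing a title number as separate samples, which can make p-values too small. They called 52.8% of all genes in the mean effect with the term and 47.4% without it, against 41.8% in the main setting.

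The difference of the ICG-001 effects between the times passed the test for 0 of 8 members (limma; 0 also at an unadjusted p below 0.05) and for 0% of all genes, of which 660 had an unadjusted p below 0.05. The largest difference was that of MYOF, -0.43 ± 0.29 (95% confidence interval -1.07 to 0.21). Between the DMSO groups no member passed either (0 of 8 at an unadjusted p below 0.05), against 0.0342% of all genes (0.00856% higher and 0.0257% lower at 48 h). Between the ICG-001 groups 0 of 8 passed, against 0.146% of all genes (0.0856% higher and 0.0599% lower at 48 h). There, MYOF was lower at 48 h than at 24 h by -0.66 ± 0.18 and CCN2 by -0.34 ± 0.14, both with an unadjusted p below 0.05 (limma, adjusted p = 0.211 and 0.39). With every array as a replicate and the letter b as a term, MYOF fell over time in ICG-001 by 0.62 (limma, adjusted p = 0.0453). That setting counts arrays sharing a title number as separate samples, and it called 1.43% of all genes in this comparison.

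Among themselves, the members followed the 10 replicates to different degrees. After each gene was centred on its own mean, the closest pair was CCN1 and CCN2, with a root mean square difference of 0.20 (log2 units), and FJX1 with AJUBA was as close at 0.20. Genes outside the set whose replicate profiles were nearest to each member that rose in the mean effect were named by the same measure. They were TBC1D1, PWP2 and GALC for CCN1 (nearest 0.12), FAM13B, VPS11 and HHAT for CCN2 (0.08), and MAP2, ZHX2 and FCMR for MYOF (0.21). For CRIM1 they were AHNAK2, INA and BCKDHA (0.15), for FJX1 PARP4, ELF1 and CTDSP2 (0.07), and for AJUBA CAPN2, RNGTT and EFCAB14 (0.07).

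A wider list of 30 further YAP/TAZ targets, of which 15 were tested, was set beside the members. In the mean effect 5 rose and 2 fell, with a median of 0.08 beside 0.01 for all genes, against 22.6% of all genes that rose and 19.2% that fell. TNFRSF12A, the receptor of the cytokine TWEAK, rose by 0.97 ± 0.18 at 24 h and 1.60 ± 0.18 at 48 h, or 1.96-fold and 3.03-fold (limma, adjusted p = 0.00383 and 0.000221). GADD45A, a stress-induced regulator of growth arrest, rose 1.92-fold in the mean effect on its brighter probe (limma, adjusted p = 0.000193). The other GADD45A probe rose by 0.42 on the log2 scale (limma, adjusted p = 0.0168 over all probes) and did not pass at 24 h (0.31, adjusted p = 0.224). The transcription factor FOXF2 rose 1.37-fold in the mean effect (adjusted p = 0.00218). CAV1, the main coat protein of caveolae, fell 1.74-fold (adjusted p = 5.25e-05) on its brighter probe and by 0.56 on the log2 scale on the other (0.00188). At 24 h the list had 4 that rose and 1 that fell, and at 48 h 5 and 2, against 13.7% and 10.5% of all genes at 24 h and 14.0% and 11.7% at 48 h.

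YAP1 itself did not pass the test: its mean effect was -0.03 ± 0.08 (log2, limma, adjusted p = 0.778; 95% confidence interval -0.21 to 0.15). WWTR1, which encodes TAZ, had no probe annotated to it alone and was not analysed here. In the list of YAP, TAZ and their nuclear partners, 4 of 17 tested genes (YAP1 included) rose and 3 fell in the mean effect, with a median of -0.02, against 22.6% and 19.2% of all genes. VGLL4, a TEAD-binding protein that competes with YAP, rose 1.70-fold (adjusted p = 0.000103). TEAD2 fell 1.59-fold (adjusted p = 0.00114), while TEAD1 (0.08, adjusted p = 0.708) and TEAD3 (0.26, 0.152) did not pass. The 2 probes of TEAD4 disagreed: the brighter changed by 0.41 (adjusted p = 0.00522 over all probes) and the other by -0.64 (0.00361), so its place among the 4 rests on the brighter probe, and no direction is given for the gene. JUNB, a subunit of AP-1, fell 2.03-fold (adjusted p = 0.00019).

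Of 29 tested Hippo kinases and regulators, 7 rose and 5 fell in the mean effect, with a median of -0.03, against 22.6% and 19.2% of all genes. MOB1B, a LATS coactivator, rose 1.80-fold (limma, adjusted p = 0.000494), and the scaffold WWC1, also among the further targets, rose 1.44-fold (0.00287). AMOT, the founding angiomotin, fell 1.93-fold (adjusted p = 3.85e-05), and the kinase TAOK3 fell 1.36-fold (0.0011). NF2, the upstream tumour suppressor merlin, changed by -0.03 (adjusted p = 0.855) on its brighter probe and by -0.52 on the other (adjusted p = 0.0106 over all probes). LATS1 had no probe annotated to it alone and was not analysed here. At 24 h 4 of the list rose and 4 fell, and at 48 h 3 and 3, beside the 24.3% and 25.8% of all genes called at those times.

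In the list of G protein alpha q and actin genes, 6 of 26 tested rose and 4 fell in the mean effect, with a median of -0.05, against 22.6% and 19.2% of all genes. GNAQ (0.25), TRIO (0.15) and RHOA (-0.08) did not pass the test (limma, adjusted p = 0.276, 0.283 and 0.59). PRKCA, a protein kinase C isoform downstream of G protein alpha q, rose 2.47-fold (adjusted p = 4.88e-06). RAC1, SRC and RHOC fell, with log2 changes of -0.35, -0.37 and -0.30 (adjusted p = 0.00392, 0.0134 and 0.0125), although the dimmer probes of RAC1 (-0.11) and RHOC (0.15) did not pass. Among 20 tested genes of the SRF and MRTF branch, 8 rose and 4 fell, with a median of 0.12, against the same shares of all genes. SRF rose 1.62-fold and its target ZYX 1.66-fold, while the second ZYX probe (0.13) did not pass, and the coactivator MRTFA fell 1.78-fold (adjusted p = 0.000115, 0.00024 and 0.000287). TAGLN was not well above background on any DMSO array, and 3 of 4 ICG-001 arrays detected it at each time. With the DMSO arrays set no lower than the weakest detected signal, its ICG-001 mean was 1.41-fold higher at 24 h and 1.51-fold at 48 h. It met the detection filter only through ICG-001 arrays, where it was high. Its adjusted p-values (limma, 0.0055 and 0.00149) and its place among the 8 that rose are therefore no independent evidence of a rise.

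The directions in these lists are relative to the other genes as well. Without normalization between arrays, 37.3% of all genes were called in the mean effect, and of those only 8.32% were higher. In that setting 2 further targets rose and 2 fell, 1 Hippo gene rose and 9 fell, and 0 nuclear partners rose and 4 fell. In the G protein alpha q list 1 rose and 11 fell, and in the SRF and MRTF list 2 rose and 4 fell. The medians were then -0.19 to -0.30, beside -0.32 for all genes. On that scale FOXF2, WWC1, VGLL4, SRF and ZYX stayed above 0 but did not pass the test, and GNAQ, TRIO, TEAD1 and TEAD3 were below 0.

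**Figure D4:**
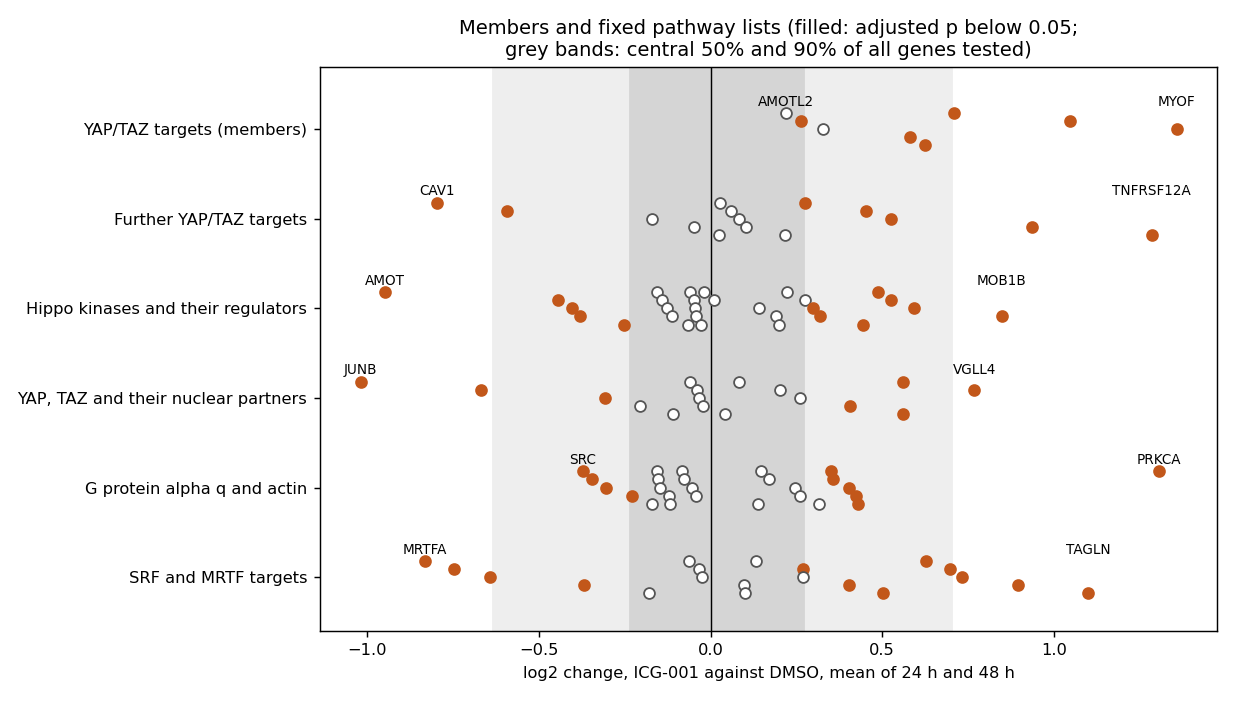
Mean log2 change of ICG-001 against DMSO over 24 h and 48 h (horizontal axis) for the 8 members and for 5 lists of related genes (rows). Filled points passed the test, and the grey bands hold the central 50% and 90% of all genes tested; the members lie to the right of 0, while each other list has points on both sides.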

How the data were processed

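Illumina bead arrays of 14 Mel202 samples were analysed. Per the file headers, the non-normalized table that the authors deposited pairs an intensity with a detection p-value for each of 47323 probes. The authors' deposited second table holds 22579 probes on a scale close to log2. The submitters' processing notes name lumi. The filter and scaling behind the second table were not given in the sources used here.

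Here, neqc of limma (version 3.58.1, under R 4.3.3) corrected the background of the intensities through the detection p-values, added an offset of 16, applied quantile normalization and took log2. The filter kept 22158 probes whose detection p-value was under 0.05 on 3 arrays or more. Names came from the platform annotation, which gives 1 symbol for 16545 probes, updated through a RefSeq table (GRCh38.p14). The brightest probe stood for each of 11679 genes. Arrays that shared a title number were averaged, leaving 10 replicates. limma's lmFit and eBayes then fitted a means model over the 4 groups, leaving 6 residual degrees of freedom, with Benjamini-Hochberg adjustment over all genes, or over all probes for probe values, a threshold of 0.05 and two-sided tests. "Rose" and "fell" are used for what passed.

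The members and gene lists were chosen with earlier results of these data known. By rule, all members were named, with up to 4 genes of the smallest p per list, a fixed set of pathway genes and the 3 nearest profiles. Marker genes are given beside them. The scripts were tested on simulated data. The alternatives tried were another offset, 75th percentile scaling, the authors' table, other detection filters, other handling of the paired arrays, array weights, the mean over probes, leaving out each replicate and, added after seeing the data, no normalization between arrays.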

Additional observations from a re-analysis of the deposited data

How the results depend on the processing

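Under 22 alternatives MYOF and CRIM1 kept their calls at 24 h and in the mean effect. At 48 h they kept them under 21, the exception being no normalization between arrays. That alternative, added after seeing the data, called 2 members at 24 h, 0 at 48 h and 2 in the mean effect, and turned FJX1 at 48 h (-0.016) and AJUBA in the mean effect (-0.085) below 0. It moved the median of all genes to -0.32 in the mean effect, in which 8.32% of the called genes were higher instead of 54.1%. By its construction, shifts between whole arrays stay in its values. With every array as a replicate and the title letter b as a term, 1 member (MYOF) was called between the ICG-001 times. Leaving out 1 replicate gave 2 to 5 members called at 24 h and 2 to 4 at 48 h, and 2 to 7 and 2 to 5 member probes. The fewest members and probes came without the averaged pair of DMSO arrays of the same time, and the 2 probes at 48 h also without the other DMSO replicate and without the second ICG-001 replicate of that time. The lone DMSO sample is assumed to vary like the other groups. Of all genes, 2833 were called at 24 h and 3010 at 48 h. These counts were 848 at 24 h without normalization, 3940 and 3805 with every array as a replicate, 4581 and 4518 with the letter b as a term beside that, 1514 at 24 h without the DMSO pair of that time, and 1398 and 1739 at 48 h without either DMSO replicate of that time. For the difference of the effects the count was 0 to 1, for DMSO over time 0 to 96 (4 in the main setting) and for ICG-001 over time 0 to 167 (17). The causes were not tested. Of the members' values over all 6 comparisons, 1031 kept their side of the threshold, of which 52 uncalled ones changed sign. For the b arrays alone, kept meant a move of less than the replicate spread. A further 37 lost the call, 2 lost it and changed sign, 7 gained one, and 27 of the b arrays alone, with no test, moved further. Between the times, in either treatment or in the effects, 0 members were called in the main setting. No call could be lost there, so the 1031 says little about how firm the calls were. No paired analysis was possible because no title number is shared between groups. Signal close to background limits the dim probes of CRIM1 and MYOF most, and AMOTL2 was dim in every group.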
